A study of Homo sapiens with 6 samples.

Results

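The genes described here are 34 genes of protein folding in the endoplasmic reticulum (ER) and of the unfolded protein response, out of 58735 gene IDs in the count table. They were taken by name, and each matched 1 gene ID of GENCODE release 29. They comprise 9 genes of the ER Hsp70 and Hsp90 system, 3 genes of the lectin chaperone cycle and 10 genes of disulfide and proline isomerisation. The rest are 1 translocon gene, 7 genes of ER-associated degradation (ERAD) and 4 stress sensor and transcription factor genes. The libraries came from HCT116, an established human colorectal carcinoma line labelled as colon adenocarcinoma cells. Of the 6 libraries, 3 (Vector) carried an empty lentiviral vector in cells labelled WT and 3 (SETD8) carried a lentiviral construct for SETD8 overexpression. SETD8 is the histone H4 lysine methyltransferase listed in current annotation as KMT5A. Cells of both groups were selected with puromycin. The labels speak of stable clones and do not say how many clones stand behind each group, and the design text speaks of transfection instead of transduction. Separate cultures are not stated for the replicates, so each p-value rests on the spread between libraries, which may be technical.

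Secreted and membrane proteins enter the ER through the Sec61 translocon and fold there with the help of the Hsp70 protein BiP (HSPA5), the Hsp90 protein endoplasmin (HSP90B1), the calnexin and calreticulin lectin cycle and the protein disulfide isomerases. Proteins that fail to fold are sent back to the cytosol and degraded by ERAD. When unfolded proteins accumulate, the sensors IRE1 (ERN1), PERK (EIF2AK3) and ATF6 start the unfolded protein response. ATF6 and the spliced product of XBP1 then raise transcription of chaperone and ERAD genes through short promoter elements. Colon epithelium is a tissue in which secretory cells depend on this pathway.

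The promoter sequences are shown because some of the members hold elements known from the stress response. The ER stress response element is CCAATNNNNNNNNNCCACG, a CCAAT box and a CCACG box separated by 9 bases of any kind, and it is a known binding site of NF-Y with ATF6. It was searched on both strands in the 250 bases before each RefSeq start (GRCh38.p14). Of 33 members with a promoter entry, 8 held it, or 24.2%, against 25 of 27305 genes (0.0916%) in the whole promoter table and 0 of 91 other ER genes with an entry. PDIA3 had no entry. The members were chosen as genes of a response that acts through such elements, so their higher share is not independent of that choice. The elements follow with 5 bases on each side, in the direction of the gene's transcription. Capitals mark the CCAAT and CCACG boxes, which read CGTGG and ATTGG where the element lies on the reverse strand.

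HSPA5 (chr9:125241386-125241414, minus strand): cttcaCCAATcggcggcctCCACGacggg
HSP90B1, forward element (chr12:103930211-103930239, plus strand): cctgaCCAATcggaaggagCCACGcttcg
HSP90B1, reverse element (chr12:103930316-103930344, plus strand): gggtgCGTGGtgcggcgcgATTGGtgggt
PDIA6 (chr2:10812848-10812876, minus strand): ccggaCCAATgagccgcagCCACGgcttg
CANX (chr5:179698773-179698801, plus strand): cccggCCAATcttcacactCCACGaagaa
CALR (chr19:12938379-12938407, plus strand): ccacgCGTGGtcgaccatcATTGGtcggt
CRELD2 (chr22:49918549-49918577, plus strand): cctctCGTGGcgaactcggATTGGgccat
ERO1B (chr1:236282178-236282206, minus strand): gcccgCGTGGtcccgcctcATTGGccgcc
XBP1 (chr22:28800598-28800626, minus strand): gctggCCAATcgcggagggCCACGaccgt

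By exact match, HSP90B1 was the member with 2 such elements, 1 in each direction. Near matches were not counted, such as a CCAAT box in the HSPA5 window below that stands 9 bases before CCAAC. In HSPA5 the element lay 66 to 48 bases before the start, and in XBP1 52 to 34 bases. The 250 bases before the HSPA5 start (chr9:125241344-125241593, minus strand) are printed in full because this is the textbook promoter of the stress response, with the element in capitals.

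HSPA5: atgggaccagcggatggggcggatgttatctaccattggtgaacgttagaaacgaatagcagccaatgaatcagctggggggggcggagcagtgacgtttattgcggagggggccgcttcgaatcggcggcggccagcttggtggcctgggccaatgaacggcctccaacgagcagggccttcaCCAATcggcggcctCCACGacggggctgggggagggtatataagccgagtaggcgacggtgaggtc

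The related ER stress response element II, an ATTGG box and a CCACG box with 1 base of any kind between them, was found on either strand before HYOU1 (2 matches), HERPUD1 and SDF2L1, in 3 of 33 members, 0 of 91 other ER genes and 18 of 27305 genes (0.0659%). The XBP1 site core TGACGTGG was found before DNAJC10, TXNDC5 and HYOU1, in 3 of 33 members (9.09%), 5 of 91 other ER genes (5.49%) and 213 genes of the whole table (0.780%). In HYOU1 the XBP1 site core and 1 match of element II overlapped. These matches describe the letters of the window and are not measured binding sites.

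HYOU1, element II and XBP1 site core (chr11:119057375-119057395, minus strand): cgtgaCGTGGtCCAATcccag
HYOU1, second match of element II (chr11:119057269-119057289, minus strand): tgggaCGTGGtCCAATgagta
HERPUD1, element II (chr16:56932020-56932040, plus strand): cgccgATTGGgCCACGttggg
SDF2L1, element II (chr22:21642109-21642129, plus strand): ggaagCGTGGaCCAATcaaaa

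**Figure D1:**
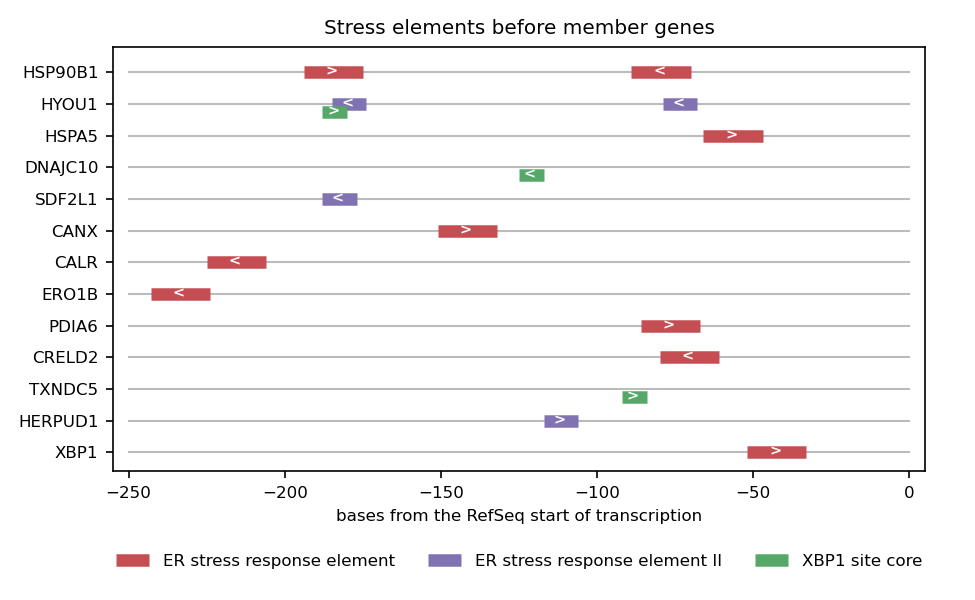
Position of 3 stress elements (bars) in the 250 bases before the RefSeq start of the 13 members that held one, with distance from the start in bases on the x axis and arrowheads for the strand; CANX is drawn from 1 of its 2 starts. HSP90B1 holds 2 ER stress response elements and HYOU1 2 matches of element II.

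The libraries held 17056672 to 20471843 counted reads, and the lowest count of a member in a library was 49. Levels are given as CPM, the read count relative to library size with TMM scaling, and a count of 3, the limit that a count of 0 allows, stood at 0.150 to 0.174 CPM (counting error only). KMT5A was higher with SETD8, at 46.0, 47.3 and 53.9 CPM in the Vector libraries and 65.4, 66.2 and 75.5 CPM with SETD8 (log2 fold change 0.49, SE 0.10, edgeR adjusted p = 0.0156), a call lost without Vector replicate 2 or any 1 of the SETD8 libraries (highest edgeR adjusted p = 0.0965, against 0.000291 to 0.0965 over 15 alternatives). Of 9 colon epithelium markers, 6 stood at 1 CPM or more in all libraries, with a summed level of 10772 to 13286 CPM in Vector and 11263 to 12719 CPM in SETD8, while CDX1 was at 0 and VIL1 and CEACAM5 were near 0. Of these markers CDH1 fell with SETD8 (log2 fold change -0.54, edgeR adjusted p = 0.0218), and its part in the results was not tested. Of 5 markers of secretory epithelium, AGR2 and TFF3 were at 0 in all libraries, and the 5 summed to 0.709 to 1.90 CPM in Vector and 0.106 to 0.776 CPM in SETD8. MUC2, the goblet cell mucin, held most of this sum and did not pass (log2 fold change -1.97, edgeR adjusted p = 0.0781), and its part in the results was not tested. Of 7 blood and plasma cell markers 4 were at 0 in all libraries, and their sum was at most 0.318 CPM, while 6 fibroblast markers summed to 4.80 to 7.20 CPM in Vector and 3.50 to 4.83 CPM in SETD8. COL1A1 held most of the fibroblast sum and did not pass (log2 fold change -0.41, edgeR adjusted p = 0.236). COL1A2 and DCN were at 0 in all libraries, and COL3A1, LUM and PDGFRB were below 1 CPM. Vector replicate 1 stood apart from the other Vector libraries, at -0.94 on the first principal component against 25.7 and 39.3 for Vector replicates 2 and 3 and -23.8 to -16.5 for the SETD8 libraries.

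With SETD8, 6 of the 34 members fell and 0 rose. The genes that fell encode the Hsp90 chaperone endoplasmin (HSP90B1), the disulfide isomerases PDIA4, PDIA6 and P4HB, the co-chaperone DNAJC3 and the glucosyltransferase UGGT1, which checks the folding of glycoproteins. Their folds were small, from 1.25-fold lower for P4HB to 1.53-fold lower for HSP90B1. The members called lower were 17.6%, against 4.75% of all 14370 tested genes, by edgeR's quasi-likelihood test at a Benjamini-Hochberg adjusted p under 0.05. By the same rule 3.08% of all tested genes were called higher and 7.83% in either direction. All 34 members passed the filter on low counts. Among genes with a mean of at least 50 CPM, a level chosen after the values were seen, 6 of 20 members and 7.60% of 4104 genes were called lower, and 0 of those members and 3.46% of those genes higher. The log2 fold change was below 0 in 27 of 34 members, against 50% of all tested genes. Its median was -0.20 over the members, against 0.00 over all tested genes. In bulk RNA, fewer cells of a type and less RNA per cell cannot be told apart. Single libraries decided how many members were called lower, as they did for all tested genes. The number was 16 without Vector replicate 1, where 11.8% of all tested genes were called lower. It was 0 without Vector replicate 2 (0.320% of all tested genes) or SETD8 replicate 1 (0.0679%). Only PDIA4 was called without SETD8 replicate 2 (0.749% of all tested genes) or SETD8 replicate 3 (0.568%). Leaving out Vector replicate 3 gave 6 (4.38% of all tested genes), with HSP90B1 and UGGT1 lost and HYOU1 and PPIB gained.

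**Figure D2:**
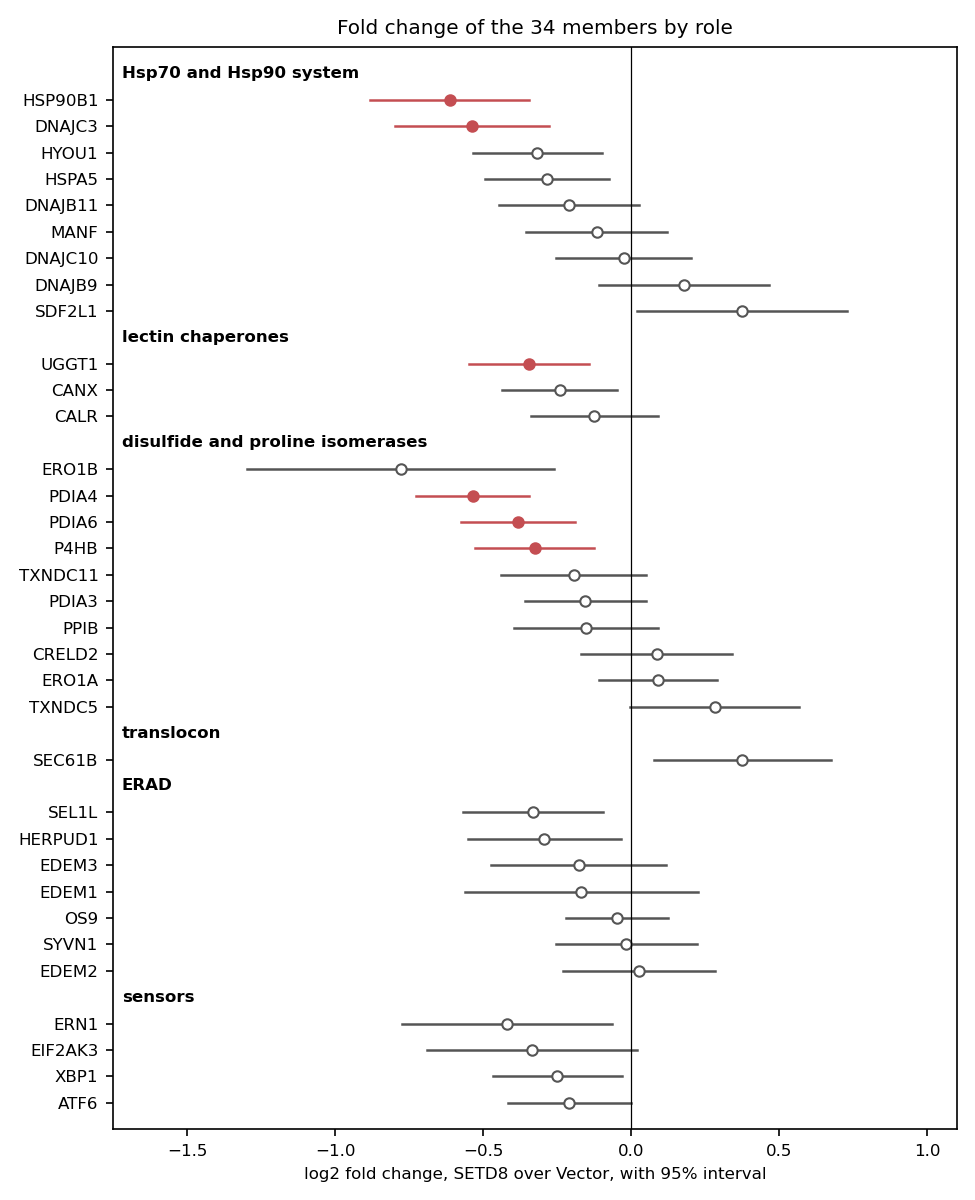
Log2 fold change of each member, SETD8 over Vector (points), with its 95% interval (bars), grouped by role; filled red points passed the edgeR test. The 6 members called lower lie between -0.61 and -0.33, and 7 members lie above 0.

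The disulfide isomerases gave the member with the lowest p-value. PDIA4, an isomerase with several thioredoxin-like domains (chromosome 7, 149003062 to 149028641, GRCh38), stood at 263, 316 and 296 CPM in Vector replicates 1, 2 and 3 and at 195, 201 and 208 CPM in SETD8 replicates 1, 2 and 3. All 3 SETD8 libraries lay below the lowest Vector library. Group means were 292 ± 27.1 CPM in Vector and 201 ± 6.49 CPM in SETD8 (SD, n = 3 each). The difference on the log2 scale was -0.54 with an SE of 0.09 (edgeR adjusted p = 0.00699). PDIA4 lost its call when Vector replicate 2 (edgeR adjusted p = 0.0639) or SETD8 replicate 1 (0.0603) was left out, against 4.46e-06 to 0.0639 over 15 alternatives.

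PDIA6, an isomerase that also acts on the sensor IRE1 (chromosome 2, 10783391 to 10837977), stood at 149, 178 and 155 CPM in the Vector libraries and at 122, 122 and 126 CPM in the SETD8 libraries. The groups did not overlap, and the SETD8 libraries were close together. The log2 fold change was -0.38 (SE 0.09, edgeR adjusted p = 0.0241). PDIA6 lost its call without Vector replicate 2 or any 1 of the SETD8 libraries (edgeR adjusted p 0.00142 to 0.151 over 15 alternatives). P4HB, the founding protein disulfide isomerase and a subunit of collagen prolyl hydroxylase (chromosome 17, 81843159 to 81860694), stood at 1304, 1487 and 1321 CPM in the Vector libraries and at 1131, 1046 and 1101 CPM in the SETD8 libraries. Its groups did not overlap either, but its call was the closest to the threshold of the 6 (log2 fold change -0.33, SE 0.09, edgeR adjusted p = 0.0489). P4HB lost the call with DESeq2-type size factors (edgeR adjusted p = 0.0507), library totals (0.0561), the replicate block (0.0870) and without Vector replicate 2 or any SETD8 replicate (0.151 to 0.220), against 0.00832 to 0.220 over 15 alternatives.

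The other 7 genes of this role did not pass. ERO1B, one of the oxidases that recharge the isomerases, had the lowest fold change of all members and few counts. It stood at 4.42, 5.84 and 7.84 CPM in the Vector libraries and at 4.08, 3.57 and 2.85 CPM in the SETD8 libraries, and the groups did not overlap (log2 fold change -0.78, SE 0.24, edgeR adjusted p = 0.0636). ERO1B passed in 4 of 15 alternatives: with GC correction (edgeR adjusted p = 0.0307), without Vector replicate 1 (0.00457), with no low-count filter (0.0156) and in DESeq2 (0.0352). Its paralogue ERO1A averaged 93.7 and 99.7 CPM in Vector and SETD8 libraries, with a log2 fold change of 0.09 (95% interval -0.11 to 0.29), so a fold of the size of the ERO1B estimate lay outside its interval. PDIA3, the isomerase that works with calnexin and calreticulin, averaged 216 and 194 CPM (log2 fold change -0.16, edgeR adjusted p = 0.317), and its pseudogene PDIA3P1 held 4.30% as many counts, so that part of its reads may be shared. The prolyl isomerase PPIB (173 and 156 CPM, log2 fold change -0.15), the membrane-bound TXNDC11 (30.0 and 26.2 CPM, -0.19), the isomerase TXNDC5 (28.2 and 34.4 CPM, 0.28) and CRELD2 (44.0 and 46.7 CPM, 0.09) had edgeR adjusted p = 0.413, 0.296, 0.198 and 0.683. TXNDC5 shares 60.6% of its exon bases with the readthrough gene BLOC1S5-TXNDC5, which was listed at 0 counts, so its level is uncertain. The values of TXNDC11 and CRELD2 are uncertain where strand was not used, since SNN and ALG12 share exon bases with them on the opposite strand, SNN with 81.5% as many counts as TXNDC11. With length correction, which removes each library's trend with transcript length, PPIB passed as lower (log2 fold change -0.34, edgeR adjusted p = 0.0201), as it did without Vector replicate 3 (0.0302, against 0.0201 to 0.864 over 15 alternatives).

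**Figure D3:**
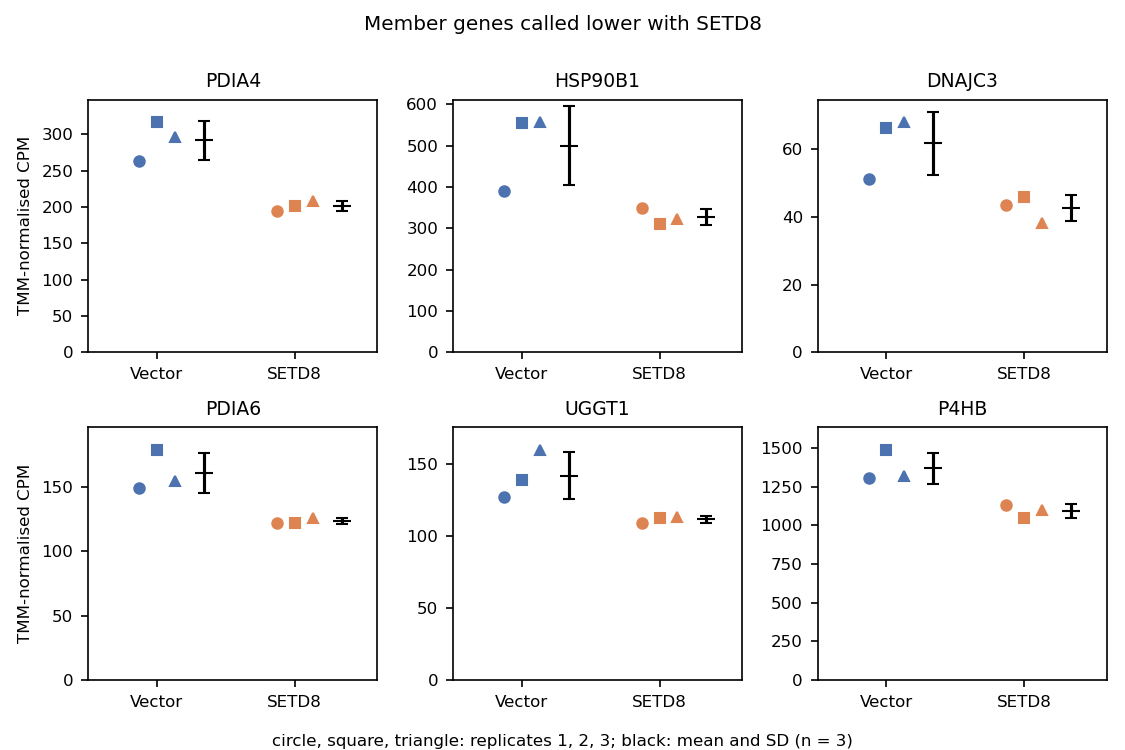
TMM-normalised CPM of the 6 members called lower, by group (x axis) and library (points, with a symbol per replicate), with the mean and SD (n = 3) in black. In each panel the 3 SETD8 libraries lie below the 3 Vector libraries, and Vector replicate 1 (circle) is the lowest Vector library.

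In the Hsp70 and Hsp90 system, 2 of 9 genes fell. HSP90B1, which folds integrins and Toll-like receptors among other clients (chromosome 12, 103930107 to 103953645), stood at 390, 554 and 556 CPM in the Vector libraries and at 348, 309 and 323 CPM in the SETD8 libraries. The groups did not overlap, though Vector replicate 1 lay nearer to the SETD8 libraries than to Vector replicates 2 and 3. Vector averaged 500 ± 95.3 CPM and SETD8 327 ± 19.9 CPM (SD, n = 3 each). The log2 fold change was -0.61 with an SE of 0.12 (edgeR adjusted p = 0.0152). HSP90B1 took 6.47%, 8.01% and 8.77% of all member counts in Vector replicates 1, 2 and 3 and 6.48%, 5.87% and 5.85% in SETD8 replicates 1, 2 and 3. Its call was lost when Vector replicate 2 or 3 was left out (edgeR adjusted p = 0.106 and 0.0554) or SETD8 replicate 1, 2 or 3 (0.0671, 0.0772 and 0.0849), against 4.72e-08 to 0.106 over 15 alternatives.

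DNAJC3, a co-chaperone of BiP also known as an inhibitor of eIF2alpha kinases (chromosome 13, 95677139 to 95794989), stood at 51.1, 66.5 and 68.0 CPM in the Vector libraries and at 43.6, 45.9 and 38.3 CPM in the SETD8 libraries. Again the groups did not overlap and Vector replicate 1 was the lowest of its group (log2 fold change -0.54, SE 0.12, edgeR adjusted p = 0.0208). DNAJC3 lost its call without Vector replicate 2 or any 1 of the SETD8 libraries (edgeR adjusted p 0.000106 to 0.129 over 15 alternatives). HSPA5 itself, the central chaperone and the usual readout of ER stress, did not pass. It stood at 599, 748 and 699 CPM in the Vector libraries and at 551, 547 and 581 CPM in the SETD8 libraries, and its groups did not overlap (log2 fold change -0.29, 95% interval -0.49 to -0.08, edgeR adjusted p = 0.0859). HSPA5 passed without Vector replicate 1 (log2 fold change -0.37, edgeR adjusted p = 0.00591) and with the filter on low counts removed (-0.28, edgeR adjusted p = 0.0418, against 0.00591 to 0.331 over 15 alternatives).

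HYOU1, an Hsp70-like nucleotide exchange factor of BiP, averaged 189 CPM with the vector and 152 CPM with SETD8 (log2 fold change -0.32, edgeR adjusted p = 0.0701), with groups that did not overlap. HYOU1 passed in 4 of 15 alternatives: without Vector replicate 1 (edgeR adjusted p = 0.00694), without Vector replicate 3 (0.0386), with no low-count filter (0.0235) and in DESeq2 (0.0489). The J-domain genes DNAJB11 (45.8 and 39.6 CPM, log2 fold change -0.21) and DNAJC10 (62.1 and 61.0 CPM, -0.03) and the secreted stress factor gene MANF (61.6 and 56.9 CPM, -0.12) had edgeR adjusted p = 0.245, 0.909 and 0.537, and the groups of all 3 overlapped. SDF2L1, a partner of DNAJB11, lay on the other side of 0. It stood at 92.6, 69.4 and 51.5 CPM in the Vector libraries and at 91.2, 88.8 and 96.7 CPM in the SETD8 libraries, so that Vector replicate 1 lay inside the range of the SETD8 libraries (log2 fold change 0.37, SE 0.16, edgeR adjusted p = 0.170). DNAJB9, a BiP co-chaperone that is a target of XBP1, stood at 13.8, 17.2 and 15.0 CPM in the Vector libraries and at 16.4, 19.4 and 16.4 CPM in the SETD8 libraries. These groups overlapped, and the difference did not pass (log2 fold change 0.18, 95% interval -0.11 to 0.47, edgeR adjusted p = 0.421). DNAJB9 shares exon bases with PNPLA8 and THAP5 on the opposite strand, which had 92.8% and 96.1% as many counts, so its level is uncertain where strand was not used. The same holds for DNAJB11 and TBCCD1, which had 36.5% as many counts.

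In the lectin chaperone cycle, which holds glycoproteins while they fold, the glucosyltransferase gene UGGT1 fell. The genes of the lectin chaperones themselves, CALR and CANX, did not pass. UGGT1 (chromosome 2, 128091200 to 128195677) stood at 127, 139 and 160 CPM in the Vector libraries and at 109, 113 and 113 CPM in the SETD8 libraries. The groups did not overlap (log2 fold change -0.35, SE 0.09, edgeR adjusted p = 0.0426). Its call was lost with library totals (edgeR adjusted p = 0.0679) and with length correction (log2 fold change -0.16, edgeR adjusted p = 0.175), and when any library other than Vector replicate 1 was left out (0.0568 to 0.171), against 0.00180 to 0.175 over 15 alternatives. Its longest transcript has 10650 bases, against a median of 3430 over all tested genes. CANX, the membrane-bound lectin, stood at 636, 740 and 742 CPM in the Vector libraries and at 591, 594 and 607 CPM in the SETD8 libraries, without overlap (log2 fold change -0.24, edgeR adjusted p = 0.113), and passed when Vector replicate 1 was left out (0.0165). CALR, its soluble counterpart, averaged 932 and 855 CPM in Vector and SETD8 libraries (log2 fold change -0.12, 95% interval -0.34 to 0.09, edgeR adjusted p = 0.453).

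SEC61B, the beta subunit of the translocon, had the highest log2 fold change of the members, though it did not pass. It stood at 51.1, 45.5 and 33.0 CPM in the Vector libraries and at 52.6, 54.2 and 61.5 CPM in the SETD8 libraries. Of the 34 members it was the gene with all SETD8 libraries above all Vector libraries (log2 fold change 0.38, SE 0.14, edgeR adjusted p = 0.110), while 13 members had all SETD8 libraries below all Vector libraries. Over all tested genes, 14.4% had SETD8 above and 15.9% had SETD8 below without overlap, 30.3% in all. SDF2L1 and SEC61B passed as higher without Vector replicate 1 (edgeR adjusted p = 0.000584 and 0.00504), where 1771 of all 14715 tested genes were called higher, and with no low-count filter. With length correction the log2 fold changes of SDF2L1 and SEC61B were 0.19 and 0.18. Their longest transcripts, of 865 and 687 bases, were the shortest of the members.

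None of the 7 ERAD genes passed (edgeR, 0 at an adjusted p under 0.05 and 2 lower at an unadjusted p under 0.05, against 13.8% of all tested genes), though 2 passed in alternatives. SEL1L, the scaffold of the HRD1 ubiquitin ligase, stood at 52.2, 60.3 and 68.7 CPM in the Vector libraries and at 45.4, 50.2 and 48.2 CPM in the SETD8 libraries, and its groups did not overlap (log2 fold change -0.33, edgeR adjusted p = 0.0776). HERPUD1, a stress-induced partner of that ligase, stood at 44.0, 61.1 and 54.6 CPM in the Vector libraries and at 40.7, 46.6 and 43.1 CPM in the SETD8 libraries, with overlap (log2 fold change -0.29, 95% interval -0.55 to -0.03, edgeR adjusted p = 0.145). SEL1L and HERPUD1 passed without Vector replicate 1 (edgeR adjusted p = 0.00333 and 0.00544), and SEL1L also with no low-count filter (0.0411) and with GC correction (0.0353). SYVN1, which encodes the ligase HRD1 itself, averaged 24.6 and 24.3 CPM (log2 fold change -0.02), but it overlaps FAU and MRPL49, which had far more counts, and its value is uncertain. OS9, a lectin that delivers glycoproteins to the ligase, averaged 119 and 115 CPM (log2 fold change -0.05, 95% interval -0.22 to 0.13). The mannosidase-like genes EDEM1 (6.87 and 6.10 CPM, log2 fold change -0.17), EDEM2 (28.8 and 29.3 CPM, 0.03) and EDEM3 (19.7 and 17.4 CPM, -0.18) had edgeR adjusted p = 0.592, 0.919 and 0.438.

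The 4 sensor and transcription factor genes all had log2 fold changes below 0, and none passed with all libraries (edgeR, 0 at an adjusted p under 0.05 and 3 lower at an unadjusted p under 0.05, against 13.8% of all tested genes). XBP1, the transcription factor gene whose messenger IRE1 splices, stood at 77.8, 99.3 and 91.4 CPM in the Vector libraries and at 71.5, 78.9 and 75.6 CPM in the SETD8 libraries. Vector replicate 1 overlapped the SETD8 libraries (log2 fold change -0.25, 95% interval -0.47 to -0.03, edgeR adjusted p = 0.139). A count per gene does not separate spliced from unspliced XBP1, so splicing was not measured here.

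ATF6, the sensor that is cleaved to a transcription factor, stood at 59.0, 69.4 and 71.3 CPM in the Vector libraries and at 56.3, 57.8 and 58.7 CPM in the SETD8 libraries, without overlap (log2 fold change -0.21, edgeR adjusted p = 0.189). ERN1, the gene of IRE1, stood at 14.3, 19.6 and 22.9 CPM in the Vector libraries and at 13.3, 13.3 and 15.9 CPM in the SETD8 libraries (log2 fold change -0.42, 95% interval -0.77 to -0.07, edgeR adjusted p = 0.127). EIF2AK3, the gene of the kinase PERK, stood at 9.27, 11.0 and 13.4 CPM in the Vector libraries and at 9.38, 7.97 and 9.31 CPM in the SETD8 libraries (log2 fold change -0.33, edgeR adjusted p = 0.217). In ERN1 and EIF2AK3, Vector replicate 1 lay within the range of the SETD8 libraries. Without Vector replicate 1 the genes XBP1, ATF6, ERN1 and EIF2AK3 passed as lower (edgeR adjusted p = 0.00918, 0.0238, 0.00401 and 0.0471), where 11.8% of all tested genes were called lower. ATF6, ERN1 and EIF2AK3 passed in 1 of 15 alternatives and XBP1 in 2. With length correction XBP1 passed (-0.35, edgeR adjusted p = 0.0441) and ATF6 had -0.08 (edgeR adjusted p = 0.598).

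**Figure D4:**
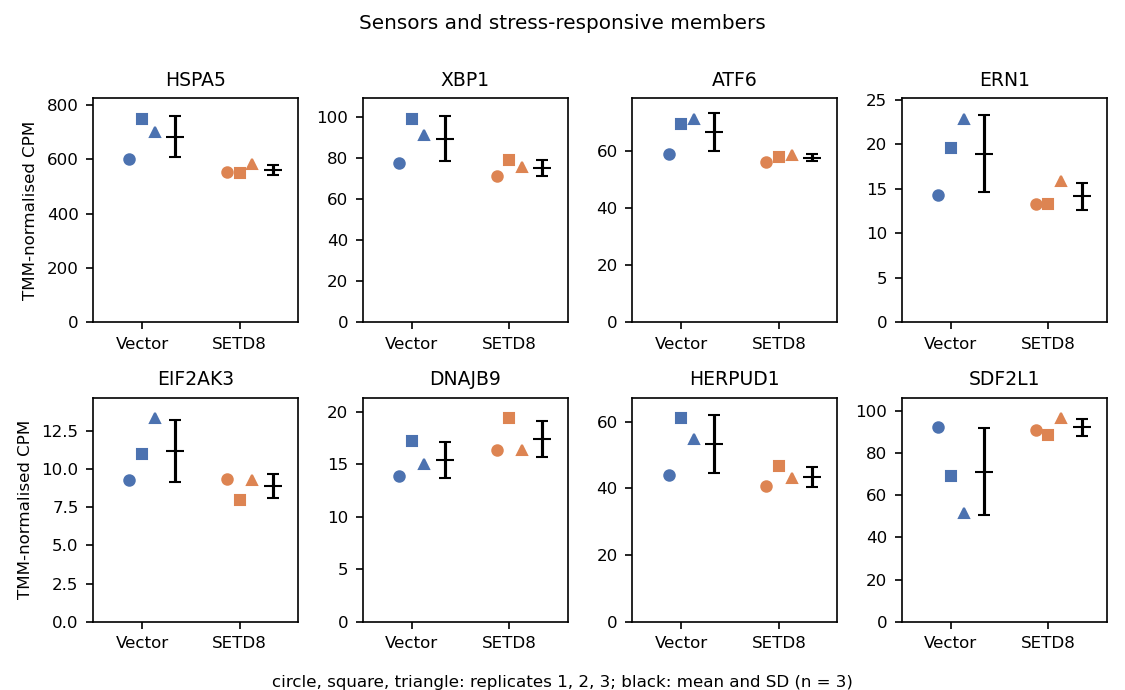
TMM-normalised CPM of HSPA5, the sensor and transcription factor genes and 3 stress-responsive members, by group (x axis) and library (points, with a symbol per replicate), with the mean and SD (n = 3) in black. Vector replicate 1 (circle) lies at or near the SETD8 libraries in ERN1 (14.3 CPM), EIF2AK3 (9.27 CPM) and SDF2L1 (92.6 CPM).

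The members varied more among the Vector than among the SETD8 libraries. The coefficient of variation was larger in Vector for 32 of 34 members, or 94.1%, against 64.9% of all tested genes. Its median over the members was 11.9% in Vector and 6.05% in SETD8 libraries, against 12.9% and 8.59% over all tested genes. Vector replicate 1 was the lowest Vector library for 22 members, or 64.7%, against 35.8% of all tested genes. Vector replicates 2 and 3 were both above every SETD8 library for 19 members, or 55.9%, against 24.8% of all tested genes. The median member stood at -0.14, 0.09 and 0.02 (log2 CPM relative to the mean of the Vector libraries) in Vector replicates 1, 2 and 3 and at -0.23, -0.20 and -0.18 in SETD8 replicates 1, 2 and 3.

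**Figure D5:**
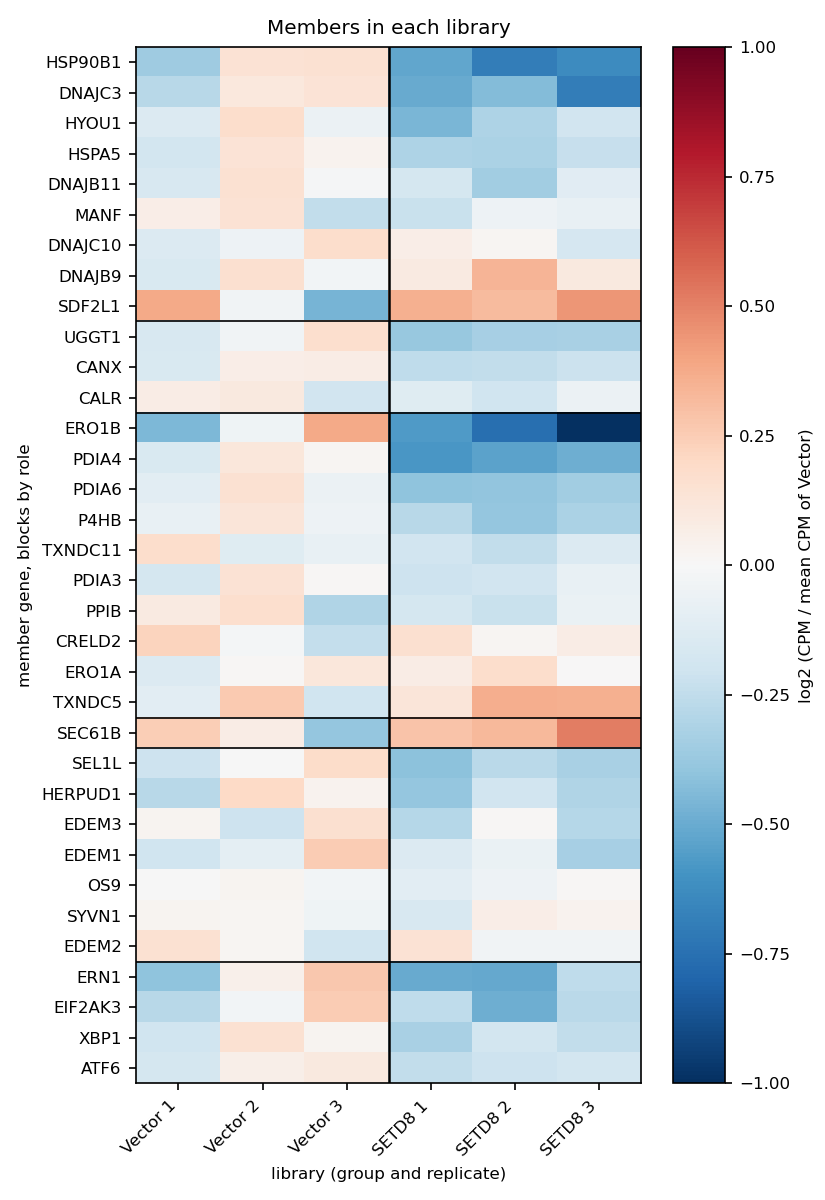
Log2 ratio of each member's CPM to its mean in the Vector libraries (colour), for each library (columns) and member (rows, in blocks by role). The blue of the SETD8 columns is deepest for ERO1B, HSP90B1, DNAJC3 and PDIA4, Vector replicate 1 is blue for HSP90B1, ERO1B and ERN1, and SDF2L1, SEC61B and TXNDC5 run the other way.

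Together the 34 genes took 0.581%, 0.676% and 0.640% of all counts in Vector replicates 1, 2 and 3 and 0.540%, 0.542% and 0.555% in SETD8 replicates 1, 2 and 3. Every SETD8 share was below every Vector share. In all libraries the genes with the most counts were P4HB, CALR, CANX, HSPA5 and HSP90B1, which held 62.8% to 65.5% of the member counts. Mitochondrial genes took 6.60% ± 1.02 of counts in Vector and 5.07% ± 0.25 in SETD8 libraries (SD, n = 3 each), and without them the member shares were 0.618%, 0.720% and 0.694% in Vector and 0.568%, 0.573% and 0.584% in SETD8 libraries.

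Per length, as CPM per kilobase of merged exons in the Vector libraries, CALR was the most abundant member (343 ± 36.9), followed by P4HB (258 ± 19.0), HSPA5 (175 ± 19.5), CANX (113 ± 9.70) and HSP90B1 (106 ± 20.3; SD, n = 3 each). CANX and HSP90B1 did not differ beyond their spread on this scale. EDEM1 (1.02 ± 0.17) and ERO1B (1.12 ± 0.32) were the lowest and also lay within their spread of each other. The sensors ERN1 (1.74 ± 0.40) and EIF2AK3 (2.06 ± 0.38) stood below every gene of the Hsp70, Hsp90 and lectin groups, while ATF6 (8.44 ± 0.84) and XBP1 (29.6 ± 3.60) were higher. In the SETD8 libraries the order of the leading genes on the same scale was CALR (315), P4HB (206), HSPA5 (143), CANX (95.8), SDF2L1 (83.9) and PPIB (81.6), with HSP90B1 next at 69.6.

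The ER stress response element did not separate the members that fell from the rest. Of the 6 members that fell, HSP90B1 and PDIA6 held it, and of 27 others with a promoter entry 6 did. The median log2 fold change was -0.27 over the 8 members with the element and -0.18 over the 25 without it. No member with element II or with the XBP1 site core was called with all libraries. These are descriptions of small numbers of genes, with no test.

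The longest transcripts of the members that fell had a median of 2968 bases (2603 to 10650), against 3889 for the other 28 members, 4977 for all 682 genes called lower and 2311 for all 443 called higher. With length correction 7 members were called lower, as were 791 of all 14370 tested genes, against 682 of them without it. Calls thus also rose outside the members. Of the 6 members, 5 kept the call, UGGT1 being lost and PPIB and XBP1 gained. DNAJC10, whose longest transcript has 20129 bases, had a log2 fold change of 0.25 with length correction, and UGGT1 (-0.35 to -0.16), ATF6 (-0.21 to -0.08), SDF2L1 (0.37 to 0.19) and SEC61B (0.38 to 0.18) moved toward 0. PDIA4 (-0.54 to -0.57), PDIA6 (-0.38 to -0.44), P4HB (-0.33 to -0.39) and HSP90B1 (-0.61 to -0.65) moved away from 0.

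Other genes of the ER gave calls in both directions. Of 107 tested genes in 5 lists of further ER genes, 5 fell and 6 rose, or 4.67% lower against 4.75% of all tested genes, and their median log2 fold change was 0.04. The median differed between these lists, from -0.19 in the list of stress transcription and the eIF2alpha branch, near the -0.20 of the members, to 0.16 in the list of further folding enzymes. In the translocon and signal peptidase list, 2 of 17 rose and 0 fell: TRAM1, which helps chains enter the membrane, stood at 144 ± 5.11 CPM in Vector and 200 ± 6.21 CPM in SETD8, SD over 3 libraries (log2 fold change 0.48, edgeR adjusted p = 0.00699), and SEC61G, the gamma subunit, rose by 0.42. In the N-glycosylation list, 3 of 17 fell, or 17.6%, the same share as among the members, and 1 rose. The lectin gene MLEC (-0.42), PRKCSH, the beta subunit of glucosidase II (-0.33), and UGGT2, the paralogue of UGGT1 (-0.74), fell, whereas MOGS, glucosidase I, rose by 0.64 (edgeR adjusted p = 0.0120, 0.0377, 0.0375 and 0.0163).

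Among 31 further folding enzymes, FKBP10, a prolyl isomerase of collagen folding, fell from a mean of 99.9 CPM to 68.6 CPM (log2 fold change -0.54, edgeR adjusted p = 0.00514), and ERP29 (0.45) and SDF2, the paralogue of SDF2L1 (0.46), rose (edgeR adjusted p = 0.0460 and 0.0350). Of 25 further ERAD genes, SELENOK rose by 0.44 and 0 fell. Of 17 genes of stress transcription and the eIF2alpha branch, CREB3L2, a membrane-bound transcription factor gene, fell by 0.64 on the log2 scale (edgeR adjusted p = 0.0123) and 0 rose. Log2 fold changes were below 0 in 13 of the 17, against 50% of all tested genes.

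In that list several stress genes, named after their values were seen, were high in Vector replicates 2 and 3 and low in Vector replicate 1. CHAC1, a glutathione-degrading enzyme gene of the PERK branch, stood at 5.23, 22.7 and 22.2 CPM in Vector replicates 1, 2 and 3 and at 5.30, 7.77 and 5.41 CPM in SETD8 replicates 1, 2 and 3 (log2 fold change -1.44, edgeR adjusted p = 0.164). The transcription factor gene ATF3 stood at 23.2, 80.1 and 65.9 CPM in the Vector libraries and at 34.6, 29.2 and 41.1 CPM in the SETD8 libraries (log2 fold change -0.69, edgeR adjusted p = 0.422). DDIT3, the gene of CHOP, stood at 1.04, 6.54 and 5.47 CPM in the Vector libraries and at 2.65, 2.59 and 2.09 CPM in the SETD8 libraries (log2 fold change -0.83, edgeR adjusted p = 0.306). In CHAC1, ATF3 and DDIT3 Vector replicates 2 and 3 lay above every SETD8 library and Vector replicate 1 below every SETD8 library. ATF4 had the same order, at 166, 250 and 236 CPM in the Vector libraries and 187, 196 and 188 CPM in the SETD8 libraries. So did TRIB3, at 56.6, 89.4 and 85.6 CPM in the Vector libraries and 58.5, 58.2 and 60.1 CPM in the SETD8 libraries. Neither passed (log2 fold change -0.19 and -0.39, edgeR adjusted p = 0.354 and 0.103). Of the 17 genes, 6 were lowest in Vector replicate 1, against 1765 of all 14370 tested genes. Among the members, 19 of 34 (55.9%) also had both Vector replicates 2 and 3 above every SETD8 library, against 24.8% of all tested genes. The part of these stress genes in the members' result was not tested.

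Of 22 chaperone genes of the cytosol and mitochondria, the Hsp70 gene HSPA8 (-0.41), the Hsp90 gene HSP90AA1 (-0.44) and the co-chaperone gene DNAJB1 (-0.31) fell and 0 rose. This was 13.6% lower, against 17.6% of the members and 4.75% of all tested genes, with a median of -0.07. Without Vector replicate 1, 15 further ER genes were lower and 19 higher, against 1738 and 1771 of all 14715 tested genes. Without Vector replicate 3 they numbered 5 and 7, against 644 and 449 of 14687. They were 1 and 1 without Vector replicate 2 (47 and 25 of 14666), SETD8 replicate 2 (110 and 45 of 14691) or SETD8 replicate 3 (84 and 45 of 14776). Without SETD8 replicate 1 they were 0 and 0, against 10 and 1 of 14734.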

How the data were processed

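Counts per gene were deposited by the authors as raw whole numbers, for 58735 Ensembl IDs, per the file headers and values. Libraries were poly(A)-selected and made with a stranded Illumina kit, per the labels' protocols. Named in the submitters' processing notes are HISAT2 and STAR, featureCounts and HTSeq, and the build GRCh38 (hg38). Their roles, their strand settings and the annotation used are not stated in the labels, and genes that overlap others are therefore uncertain. Columns named NC were taken as Vector because the remaining columns are named SETD8, and their numbers as replicates. Every ID matched GENCODE release 29.

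After filterByExpr (14370 genes kept) and TMM scaling, SETD8 was compared with Vector in edgeR 4.0.16 (R 4.3.3) with the robust quasi-likelihood test and no covariate. The p-values are two-sided and adjusted by Benjamini-Hochberg over the tested genes, with a threshold of 0.05, and intervals are 95%. The fitting script was tested on simulated data, where 54.9% of 1.5-fold, 80.0% of 2-fold and 93.3% of 4-fold changes were called. Of the calls there, 4.88% were false. Changes smaller than 1.5-fold were not simulated, so a member that did not pass may still have changed. The text names all 34 members, KMT5A and up to 4 called genes of each other list. Values in every library were set for called members, HSPA5, DNAJB9, HERPUD1 and the sensor group. They were added for ERO1B, SDF2L1, CANX, SEC61B, SEL1L, CHAC1, ATF3, DDIT3, ATF4 and TRIB3 after their values were seen. Alternatives were DESeq2-type size factors, library totals, 2 other filters, DESeq2 1.42.0, voom in limma 3.58.1, a replicate block, length and GC corrections (lowess offsets, span 0.3) and leaving out each library. Ranges of adjusted p over the alternatives include those of DESeq2 and limma. The members and lists were chosen with earlier results of these data known. Figures were drawn with matplotlib 3.10.9.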

Additional observations from a re-analysis of the deposited data

How the results depend on the processing

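The median log2 fold change of the members stayed below 0 in all 15 alternatives, at -0.27 to -0.17 when 1 library was left out and -0.16 with library totals, which shifted the median of all tested genes by 0.04. The share of falls among all calls moved from 60.6% to 38.9% with library totals (505 lower, 792 higher). With no low-count filter, 10 members were lower and 2 higher, against 8 and 13 further ER genes and 1051 and 949 of all 27442 genes tested. In that fit HSP90B1 had an edgeR adjusted p of 4.72e-08, against 0.0152 with the filter. Passes and lowest adjusted p-values from that fit therefore depend on this setting. DESeq2 called 739 of all genes and 12 further ER genes higher, library totals 12 further ER genes higher, and length correction 8 further ER genes lower. Leaving out 1 library gave 0 to 16 members lower and 0 to 2 higher, 0 to 15 and 0 to 19 further ER genes, and 10 to 1738 and 1 to 1771 of all genes. The cause was not tested. Signs of members near 0 turned. DNAJC10 was 0.0153 with library totals, 0.247 with length correction and -0.0909 to 0.0711 when 1 library was left out. SYVN1 was 0.0273 with library totals, 0.0282 with length correction and -0.0589 to 0.0517 when 1 library was left out. EDEM2 was -0.0932 with length correction, and with 1 library left out EDEM2 ranged from -0.0602 to 0.105 and CRELD2 from -0.0162 to 0.209. The replicate block gave 5 members lower and 645 lower and 532 higher of all genes; the block changed 1 member call, that of P4HB. Same-numbered libraries did not deviate together over all tested genes (correlations 0.0247, 0.00778 and -0.0637). This cannot show whether they were handled in pairs, which the labels do not state. Depth limits ERO1B most, with as few as 49 counts in a library.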
